A study of Mus musculus with 19 samples.

Results

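Retinal microglia, the resident macrophages of the retina, were compared on day 3 after laser-induced choroidal neovascularization (CNV d3, n = 6) and in unlasered mice (control, n = 6). In these data 18 protein-coding genes had no read in any control sample and were on after laser treatment. They are the protein-coding genes outside chromosome Y that were listed at 0 in all 6 controls and reached at least 20 normalized counts, that is reads divided by the size factor of the sample, in at least 5 of the 6 CNV d3 samples. The table held 27299 genes, 16070 of them protein-coding. The genes were thus chosen by their measured values in both groups, so the difference from control is a description and is given without a test. The 4 genes *Ttk*, *Gtse1*, *Polq* and *Bard1* belong to a list of cell division genes, and the other 14 do not.

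All mice were 8 weeks old, and the labels name the strain C57BL/6J, where the methods name Cx3cr1 GFP/+ mice on that background, in which GFP replaces 1 copy of the fractalkine receptor gene. The CNV d3 mice had received 6 argon laser burns per eye, which break the membrane under the retina and let vessels grow in from the choroid. Controls were not lasered. The cells of both groups were sorted as positive for CD11b and CX3CR1 and negative for Ly6C and Ly6G, with CD45 given as positive in the labels and as low in the methods. The labels do not say whether a sample is 1 animal, so the spread given here is that between samples.

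The CNV d3 samples held between 23532260 and 29523018 reads on genes and the controls between 10963178 and 22335233. The microglial genes *Tmem119*, *P2ry12* and *Cx3cr1* were high in all 12 samples. The summed level of the 12 microglial markers was between 1463270 and 1632990 normalized counts in control and between 833103 and 1241640 in CNV d3. The sum of 14 monocyte markers was between 250.1 and 1298 in control and between 5126 and 52133 in CNV d3, of which *Fn1* made up most. *Ccr2* was between 0 and 95.3 in control and between 120 and 1351 in CNV d3. *Plac8* had medians of 30.2 and 512, with overlapping ranges of 1.01 to 288 and 200 to 1447. The ranges of *F13a1*, *Vcan* and *Hp* overlapped as well. *Ly6c2*, which the sort selects against, was at 0 in all controls and between 1.73 and 25.1 in CNV d3. All controls and CNV d3 replicates 1 to 3 had *Xist* reads and a summed level of 4 Y-linked genes of at most 0.895 normalized counts. CNV d3 replicates 4 to 6 had at most 0.866 for *Xist* and between 3529 and 4284 for the Y-linked genes, so that sex differs between samples of the lasered group. In bulk samples fewer cells of a type and less RNA per cell cannot be told apart.

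Resting microglia sense their surroundings with a set of receptors that act through the adaptor TYROBP, and they divide rarely. After injury they can enter the cell cycle, gain receptors and interferon-induced proteins that they share with blood-derived myeloid cells, and take up cytokine signals that act through JAK and STAT proteins. Suppressors of cytokine signalling are themselves induced by STAT proteins and dampen the response. Linker histones bind the DNA between nucleosomes and are made mostly while DNA is copied.

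The silent genes were few. Of the 16064 protein-coding genes outside chromosome Y, 1658 had no read in any control, and 93 of these had reads in all 6 CNV d3 samples. At least 20 normalized counts were reached by 311 genes in 1 CNV d3 sample or more, by 41 in at least 4 and by 18 in at least 5. No protein-coding gene met the mirror rule, at 0 in all CNV d3 samples and at least 20 in 5 controls, although 794 were at 0 in all CNV d3 samples. No gene of chromosome Y met the value rule. Only CNV d3 replicates 4 to 6 were high in Y-linked reads and the rule asks for 5 samples, so nothing is read from this. Of the 18 genes, the nearest to the threshold on the inside was *Olfml2a*, whose fifth-highest CNV d3 sample held 20.1 normalized counts, and *Socs2* (24.4), *Uaca* (24.9) and *Cd24a* (25.1) also lay near it. Just outside were *Tox2* with 19.9, *Tmem40* with 19.1, *Mlf1* with 18.4, *Tespa1* with 17.6 and *Trpt1* with 17.6. The 2 sides of the threshold thus lie close together.

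A count of 0 in the shallowest control, where 1 read is worth 1.99 normalized counts, allows up to 3 reads or 5.96 normalized counts, which covers counting error only. Against that floor per library, mean levels after laser treatment were at least 56.2-fold higher for *Ttk*, at least 21.7-fold higher for *Klrk1* and at least 4.85-fold higher for *Olfml2a*. The controls were sequenced less deeply. The reads of every sample were therefore thinned to the depth of the shallowest control. After thinning, 18 of 18 genes had at least 3 reads in at least 5 CNV d3 samples. The rule that chose the genes nearly fixed this, since its threshold is expected to leave more than 3 reads. A control at 0 stays at 0 when thinned, so the thinning cannot test the silence of the controls. The 4 genes *Gtse1*, *Klrk1*, *Polq* and *Ttk* still met the whole rule. In 16 of the 18 genes every CNV d3 sample lay above every control, against 4.64% of all genes tested, and in *Spib* and *Olfml2a* 1 CNV d3 sample was at 0. This count follows from the rule that chose the genes, and nothing is read from it.

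Promoters of the members were read from RefSeq on GRCm38.p6, as windows from 250 bases before to 50 bases after the start of a gene, and 15 of the 18 genes had 1 or more (16 windows). Shown here are those of *Klrk1* and *Jaml*, surface genes with high levels whose windows hold a motif of stress or interferon response factors, and that of *Ttk*, the gene with the highest mean. Capitals mark, on either strand, CCAAT (a sequence bound by NF-Y), TTTGAA (the cell cycle homology region), TGANTCA (the AP-1 site) and GAAA with a second GAAA 2 bases on (the core of interferon response elements).
Klrk1 promoter, chr6:129623815-129624114, - strand: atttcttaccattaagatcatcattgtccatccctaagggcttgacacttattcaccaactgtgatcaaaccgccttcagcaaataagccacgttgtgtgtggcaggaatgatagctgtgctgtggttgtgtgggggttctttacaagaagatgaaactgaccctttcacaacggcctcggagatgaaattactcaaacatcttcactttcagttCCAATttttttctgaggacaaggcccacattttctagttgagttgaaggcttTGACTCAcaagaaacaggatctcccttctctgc
Jaml promoter, chr9:45078933-45079232, + strand: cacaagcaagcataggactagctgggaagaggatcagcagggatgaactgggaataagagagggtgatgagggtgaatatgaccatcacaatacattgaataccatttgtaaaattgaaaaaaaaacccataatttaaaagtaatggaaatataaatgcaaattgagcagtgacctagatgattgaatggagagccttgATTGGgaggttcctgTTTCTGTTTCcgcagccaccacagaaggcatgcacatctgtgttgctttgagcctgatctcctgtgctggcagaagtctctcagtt
Ttk promoter, chr9:83834439-83834738, + strand: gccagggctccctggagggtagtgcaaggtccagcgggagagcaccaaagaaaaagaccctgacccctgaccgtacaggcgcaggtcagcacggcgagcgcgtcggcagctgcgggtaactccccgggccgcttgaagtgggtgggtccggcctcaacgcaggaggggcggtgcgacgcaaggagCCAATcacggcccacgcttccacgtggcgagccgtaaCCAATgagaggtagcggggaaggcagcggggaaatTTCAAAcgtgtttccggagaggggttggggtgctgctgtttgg
CCAAT occurred in 10 of the 16 windows of members and in 37.4% of all 32851 windows. TTTGAA occurred in 6 of 16, those of *Bard1*, *H1f3*, *Ifitm1*, *Il2ra*, *Polq* and *Ttk*, against 17.9% of all windows. TGANTCA was found for *Klrk1* and *AA467197* (7.81% of all windows) and the paired GAAA for *Jaml* (3.44%). GAGGAA, a core bound by Ets factors such as PU.1, was found in 4 windows (28.3% of all), and TTCNNNGAA, the STAT site, for *Olfml2a* (8.30%). These matches, searched on both strands, describe letters in the windows and no binding.

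Positions of genes are on GRCm38, and the 18 genes lay on 12 chromosomes. Cell surface genes made up the largest group outside the cell division list, with 5 members whose means together were 27.1% of the level of all 18. *Klrk1* (chr6:129610323-129623864, minus strand) encodes NKG2D, an activating receptor best known from natural killer and T cells. It was at 0.866, 160.2 and 228 normalized counts in the lowest, median and highest CNV d3 sample (mean 129 ± 82.2 SD, n = 6). The lowest was replicate 4, with 1 read, while the other 5 lay between 62.8 and 228. Of 12 listed markers of T and natural killer cells 9 were measured. Their sum was between 0 and 29.4 in control and between 0.866 and 38.5 in CNV d3. *Cd3d*, *Cd3g* and *Cd2* did not exceed 4.47 in any sample, while *Gzma* reached 18.4 and *Nkg7* 9.20 in CNV d3 replicate 2. The list does not hold *Klrd1*, another natural killer cell receptor gene, which had a mean of 148 in CNV d3. Whether such cells add to the level of *Klrk1* was not tested.

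*Ifitm1* (chr7:140967221-140969825, plus strand), an interferon-induced transmembrane protein that restricts virus entry, was at 11.1, 102 and 282 normalized counts (mean 125 ± 109 SD). Its highest samples were replicates 6 and 3, and replicates 1 and 4 were lowest. Per kilobase of exon it was, at 114 normalized counts, close to *Gtse1* (116) and above all other members. *Jaml* (chr9:45079183-45108534, plus strand), an adhesion protein of leukocytes that binds the epithelial protein CXADR, was at 29.4, 67.8 and 280.1 (mean 98.2 ± 93.8 SD). Replicate 3 stood apart from the other 5, which lay between 29.4 and 110.4, and without it the mean was 61.9. *Il2ra* (chr2:11642807-11693193, plus strand), the alpha chain of the interleukin-2 receptor (CD25), was at 1.48, 49.0 and 151 (mean 60.7 ± 49.7 SD). *Cd24a* (chr10:43578284-43584265, plus strand), a small glycoprotein anchored in the membrane by lipid, was at 5.19, 56.4 and 104 (mean 57.9 ± 40.8 SD). The 5 surface genes did not share their low sample, since *Il2ra* and *Ifitm1* were under 20 in replicate 1, and *Klrk1* and *Cd24a* in replicate 4.

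**Figure D1:**
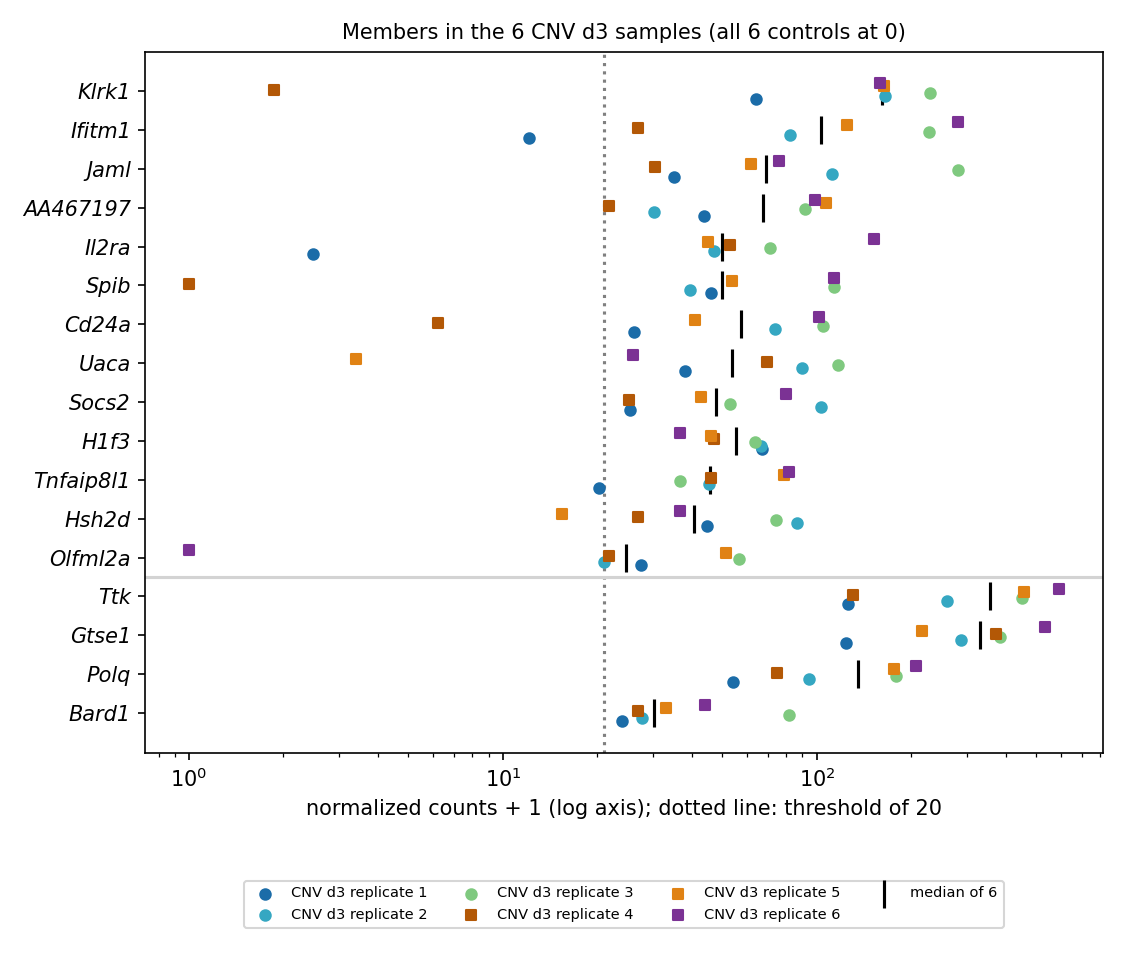
Normalized counts + 1 (log axis) of 13 members outside the cell division list (above the line) and the 4 in it (below) in each CNV d3 sample. Circles mark replicates without reads of Y-linked genes, squares those with them, bars the median of 6, and the dotted line the threshold of 20. All members with a sample under 20 are above the line.

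Signalling and transcription had 4 members. *Spib* (chr7:44525993-44532071, minus strand), an Ets transcription factor related to PU.1 and known from B cells and plasmacytoid dendritic cells, was at 0, 49.0 and 113 normalized counts (mean 60.2 ± 44.4 SD). The 0 was replicate 4, where a count of 0 allows up to 2.60, and the other 5 samples lay between 38.5 and 113. *Socs2* (chr10:95385362-95417180, minus strand), a suppressor of cytokine signalling that limits the growth hormone response, was at 24.2, 46.8 and 102 (mean 53.8 ± 31.1 SD). *Hsh2d* (chr8:72189638-72201527, plus strand), an adaptor with an SH2 domain found in haematopoietic cells, was at 14.4, 39.7 and 85.3 (mean 46.4 ± 27.6 SD). *Tnfaip8l1* (chr17:56162477-56173955, plus strand), a member of the TNFAIP8 family, was at 19.2, 44.7 and 80.6 (mean 50.4 ± 24.1 SD). These 4 genes had different lowest samples, replicate 4 for *Spib* and *Socs2*, replicate 5 for *Hsh2d* and replicate 1 for *Tnfaip8l1*.

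The linker histone *H1f3* (chr13:23553262-23560686, plus strand) was the steadiest member, at 35.7, 54.3 and 65.8 normalized counts (mean 53.3 ± 12.8 SD). Its coefficient of variation (CV, the SD as a share of the mean) was 24.0%, the lowest of the 18, and no sample was far from the others. Although it is a histone, it was not in the cell division list used here. Its counts are less certain than those of genes without relatives, since 2.25% of the 50-base stretches of its transcripts also occur in transcripts of other genes, among them *H1f4* and *H1f2* (listed as *Hist1h1e* and *Hist1h1c*).

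Mitochondrial and apoptosis-related members were *AA467197* (chr2:122636986-122641191, plus strand), a small mitochondrial protein related to the respiratory chain subunit NDUFA4, and *Uaca* (chr9:60794542-60880370, plus strand), which has been tied to the apoptosome. *AA467197* was at 20.8, 66.6 and 106 normalized counts (mean 64.5 ± 37.7 SD) and was at least 20 in all 6 samples. Its exons hold the hairpin of *Mir147*, over 79 bases on the same strand, and reads that lie in both are left out by default counting. *Uaca* was at 2.40, 52.7 and 115 (mean 56.1 ± 42.3 SD), with replicate 5 lowest. *Olfml2a* (chr2:38931978-38963753, plus strand), a secreted olfactomedin-like protein, was at 0, 23.7 and 55.5 (mean 28.9 ± 20.8 SD). The 0 was replicate 6, where a count of 0 allows up to 2.49, and the other 5 samples lay between 20.1 and 55.5. Per kilobase of exon its mean was 5.18 normalized counts.

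The 4 cell division members were at or above 20 in every CNV d3 sample, and 3 of them had the highest means of all 18. *Ttk* (chr9:83834689-83872389, plus strand), the kinase that starts spindle checkpoint signalling, was at 125, 355 and 589.8 normalized counts (mean 335 ± 193 SD). *Gtse1* (chr15:85859745-85876573, plus strand), a microtubule-binding protein that restrains p53, was at 123, 329.9 and 532 (mean 318 ± 143 SD). *Polq* (chr16:37011786-37095417, plus strand), the polymerase of an end-joining repair pathway, was at 53.2, 134 and 206 (mean 129.7 ± 63.9 SD), and *Bard1* (chr1:71027498-71103146, minus strand), the partner of BRCA1, at 22.9, 29.4 and 80.5 (mean 38.6 ± 21.8 SD). Replicate 1 was the lowest sample for all 4 genes. Of the list of 378 cell division genes 364 were measured, and 22 of them were at 0 in all controls. Genes that passed limma on log2(normalized counts + 1), with an absolute log2 fold change over 1.5 and an adjusted p under 0.05, are called DEG, and 3.91% of all genes tested were increased DEG. Of the 360 genes of the list that are not members 207 were increased by limma, 173 by edgeR and 170 by DESeq2. Decreased genes were 0 by each tool, while 3 lower genes had an unadjusted limma p under 0.05. The list had a median log2 fold change of 2.46, against 0.15 over all genes tested.

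The CNV d3 samples differed in how many of the genes they expressed. All 18 were at least 20 in replicates 2 and 3, 16 in replicates 5 and 6, and 15 in replicates 1 and 4. The 14 genes outside the cell division list summed to 482, 1007, 1530.1, 389, 859 and 1252 normalized counts in replicates 1 to 6. The 4 cell division genes summed to 324, 666, 1089.8, 601, 878 and 1371 in the same samples. Replicates 3 and 6 were therefore highest in both sums and replicates 1 and 4 lowest. As a ratio of the highest to the lowest sum, the 5 surface genes spread 8.01-fold, from 113 to 908, the 4 cell division genes 4.24-fold and the 4 signalling and transcription genes 3.23-fold, from 95.2 to 307. For 9 of the 14 genes the lowest sample was replicate 1 or 4, and for 9 of 14 the highest was replicate 3 or 6.

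**Figure D2:**
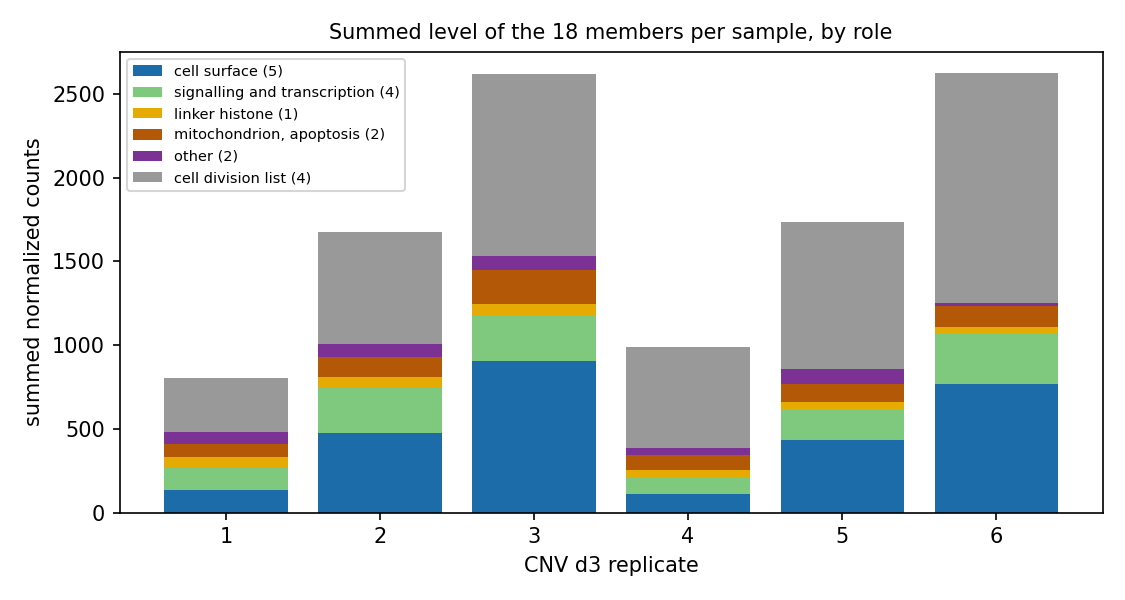
Summed normalized counts of the 18 members in each CNV d3 replicate, stacked by role, with the number of genes of each role in the legend. Replicates 3 and 6 have the tallest bars and replicates 1 and 4 the shortest.

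This spread was wide beside that of other genes in the same range of means. The median CV over the 6 CNV d3 samples was 67.0% for the 14 genes and 52.8% for the 4 cell division genes. Over 3452 other protein-coding genes with a mean in the range of the members, from 28.9 to 335 normalized counts, the median CV was 29.7% and the quartiles were 20.6% and 43.5%. Of the members 16 lay above the upper quartile, 12 of them outside the cell division list. The widest were *Jaml* (95.5%), *Ifitm1* (87.3%), *Il2ra* (81.8%), *Uaca* (75.4%) and *Spib* (73.7%). Among the narrowest beside *H1f3* were *Gtse1* (45.0%), *Tnfaip8l1* (47.8%) and *Polq* (49.2%). The compared genes were not limited to genes silent in control. They share the range of means but were not matched to the level of each member, and the median mean of the members was 59.1. The values are therefore set side by side without a test.

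**Figure D3:**
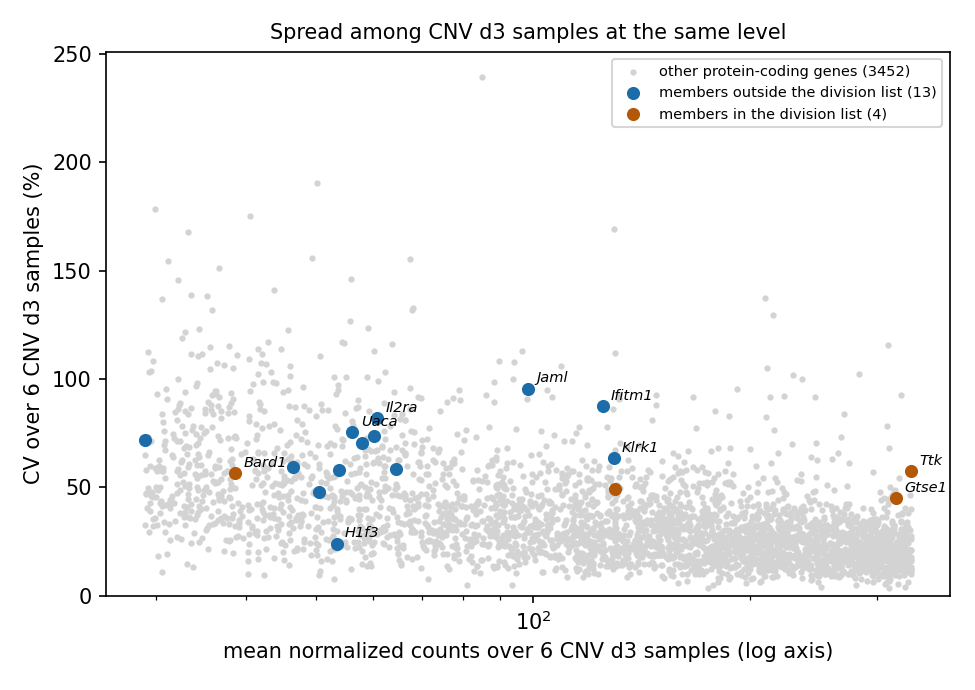
Mean normalized counts over the 6 CNV d3 samples (log axis) against the CV over the same samples in percent, for 13 members outside the cell division list, 4 in it and 3452 other protein-coding genes (grey). Apart from *H1f3*, the members plotted lie above the upper quartile of 43.5%.

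To ask whether the 14 genes follow division or monocyte genes among the CNV d3 samples, each was set against 2 scores, the mean of log2(normalized counts + 1) over 323 cell division genes and over 14 monocyte markers, members left out. *Ifitm1* followed the division score closely (n = 6, two-sided exact permutation tests), with a Pearson's r of 0.996 (permutation p = 0.00139) and a Spearman's rho of 1 (permutation p = 0.00278). Benjamini-Hochberg adjustment over the 14 genes gave 0.0194 for r and 0.0389 for rho. The order of the 6 samples was thus the same in both measures, and without replicates 1 and 4, which lay farthest from the median score, r was 0.993. The other 13 genes did not pass the adjusted threshold. *Il2ra* (r = 0.795, exact permutation p = 0.0153, adjusted p = 0.107; rho = 0.771, exact permutation p = 0.103; r = 0.841 without those samples) and *Cd24a* (r = 0.800, exact permutation p = 0.0431, adjusted p = 0.201; rho = 0.829, exact permutation p = 0.0583; r = 0.688 without them) were next.

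*H1f3* (r = -0.36), *Olfml2a* (r = -0.32) and *Uaca* (r = -0.09) had r below 0. Of the 14 genes 10 had r above 0, and the median over the 14 was 0.649. The median over 3341 other protein-coding genes in the same range of means was 0.037. Unadjusted exact permutation p was under 0.05 for 3 of 14 members and for 9.49% of those genes. No gene of the 3341 reached the r of *Ifitm1*. The 3341 genes leave out the division and monocyte lists and, unlike the members, were not chosen as silent in control and on after laser. Their values, here and for the monocyte score, are therefore set beside those of the members without a test of the difference.

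No member passed the adjusted threshold against the monocyte score, with 4 of 14 under an unadjusted exact permutation p of 0.05, against 8.38% of the other genes. *Cd24a* was highest (r = 0.950, exact permutation p = 0.00556, adjusted p = 0.0583; rho = 0.886, exact permutation p = 0.0333), and *Ifitm1*, *Spib* and *Klrk1* were the others under that p, with r between 0.859 and 0.893. Without replicates 4 and 6, farthest from the median of this score, r was 0.883 for *Cd24a* and 0.973 for *Ifitm1*. Both scores were highest in replicates 3 and 6, so the 2 relations share their samples. Within the 3 samples with and the 3 without Y-linked reads there are too few samples to give a correlation.

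**Figure D4:**
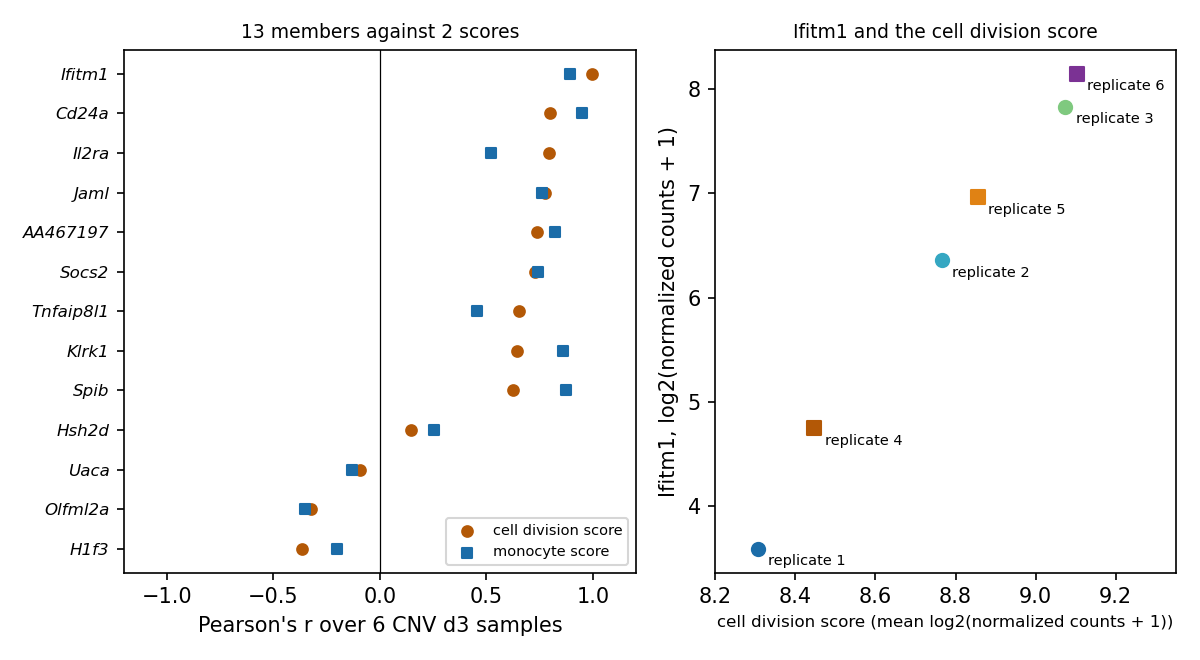
Left, Pearson's r over the 6 CNV d3 samples of each of 13 members with the cell division score (circles) and the monocyte score (squares). Right, log2(normalized counts + 1) of *Ifitm1* against the cell division score, with 1 point per CNV d3 replicate, whose order from lowest to highest is the same on both axes.

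Genes of dendritic cells also differed among these samples. *Cd209a*, at 0 in all controls, was at 0.739, 273, 379, 4.33, 167 and 510.1 normalized counts in replicates 1 to 6, and *Ccr7* at 533, 1376, 922, 0, 375 and 1111, where controls did not exceed 30.1. *Flt3* was between 51.9 and 291 in CNV d3 and between 0 and 18.3 in control. Over the whole list of 12 dendritic markers, 2 of them at 0 in all controls, the sum was between 4889 and 5696 in control and between 3205 and 5670 in CNV d3, where most of it was *Fscn1* in the controls. Replicate 4, where *Klrk1*, *Spib* and *Cd24a* were at or near 0, was also low for *Cd209a* and *Ccr7*. Among CNV d3 samples it was lowest for *Flt3* and *Kmo* but highest for *Batf3* (323.7). *Cd209a* was lower still in replicate 1, where *Klrk1* was at 62.8 and *Spib* at 45.1. The medians of *Fscn1* were 4692 in control and 2341 in CNV d3, and those of *Batf3* 365.5 and 302.5. The sum of 12 Müller cell and astrocyte markers was between 19720 and 41541 in control and between 59732 and 102561 in CNV d3. Most of this was *Apoe*, which microglia also express (11838 to 32299 in control and 51437 to 93325 in CNV d3), whereas the medians of *Slc1a3* were 2133 and 1231 and those of *Glul* 5589 and 4840. The sum of 7 measured mural cell and fibroblast markers was between 2.01 and 16.1 in control and between 103 and 359 in CNV d3, nearly all of it *Cspg4* in CNV d3 (95.2 to 356), while *Pdgfrb*, *Rgs5*, *Col1a1*, *Pdgfra* and *Lum* did not exceed 10.9 in any sample. The part of any of these cells in the levels of the members was not tested.

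Levels were also set side by side by sex-linked reads. The 3 CNV d3 samples without Y-linked reads match the controls in this respect. Each of the 18 genes was at least 20 in 2 or more of them. That follows from the rule that chose the genes, and nothing is read from it. In all 3 of them 15 genes were at least 20. In the 3 samples with Y-linked reads 11 were at least 20 in all 3. The samples with and without Y-linked reads did not overlap for *H1f3* (62.6 to 65.8 without, 35.7 to 45.9 with), *Hsh2d* (43.6 to 85.3 without, 14.4 to 35.7 with) and *Tnfaip8l1* (19.2 to 44.3 without, 45.0 to 80.6 with). These are 3 of 18 members, against 9.13% of the 3341 other genes in the same range of means.

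The partners of the members, genes whose products act with them or belong to the same family, were listed after the members were known and were tested with limma over all 27299 genes. Of 74 partners measured 16 were increased DEG and 1 was a decreased DEG, against 3.91% and 1.07% of all genes. The increased ones were mostly genes of DNA copying and division, with 4 linker histones, 4 spindle checkpoint genes and 3 partners of BRCA1. The others were 2 ligands of NKG2D, 2 genes of the IFITM family and 1 of the SOCS family. The pooled share therefore does not describe each list. Changes are log2 fold changes, CNV d3 over control, on log2(normalized counts + 1), with the adjusted p of limma.

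For the receptor of *Klrk1*, both adaptors were present in microglia of both groups. *Tyrobp* was at 26806 ± 4113 in control and 23344 ± 3271 in CNV d3 (SD, n = 6 each, log2 fold change -0.20 ± 0.11 SE, limma adjusted p = 0.270), and *Hcst* at 414 ± 54.7 and 303 ± 48.6 (-0.46 ± 0.17, limma adjusted p = 0.0917). Their ligands moved in both directions. *Raet1d* rose from a mean of 7.13 ± 17.5, with 5 of 6 controls at 0, to 86.5 ± 51.8 (log2 fold change 5.33 ± 0.99, limma adjusted p = 0.00223), but edgeR gave 3.58 with an adjusted p of 0.0805. *Ulbp1* rose from 0.337 ± 0.827 to 10.3 ± 7.05 (3.02 ± 0.59, limma adjusted p = 0.00300), a level of few reads, and with a pseudocount of 5 the change was 1.42. *H60b* fell from 65.5 ± 37.1 to 11.3 ± 6.85 (-2.31 ± 0.69, limma adjusted p = 0.0386), and this call was lost with the *Ddx3y* covariate (limma adjusted p = 0.153) and in 8 of the 12 fits without 1 sample.

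Of the chains that signal with *Il2ra*, the beta chain was near 0 and the gamma chain was present. *Il2rb*, the beta chain, was at 0 in all controls and in 5 of 6 CNV d3 samples and did not exceed 4.47 normalized counts. The common gamma chain *Il2rg* was at 723 ± 111 in control and 576 ± 116 in CNV d3 (-0.34 ± 0.16, limma adjusted p = 0.214), and *Il2* stayed at or below 8.95 in all 12 samples. *Jak3*, the kinase bound to the gamma chain, was at 1346 ± 280 and 3350 ± 552 (1.33 ± 0.15, limma adjusted p = 6.64e-05), which is under the fold threshold. *Il15* was at 649 ± 106 and 307 ± 64.7 (-1.09 ± 0.18, limma adjusted p = 0.000927). None of the 9 genes of this path was a DEG by limma, edgeR or DESeq2, and 4 had an unadjusted limma p under 0.05.

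The other members stood in families of differing behaviour. Beside *Ifitm1*, *Ifitm2* rose from 61.9 ± 32.6 to 340.4 ± 144 (2.52 ± 0.39, limma adjusted p = 0.000640) and *Ifitm3* from 2949 ± 2188 to 8877 ± 2815 (1.83 ± 0.38, limma adjusted p = 0.00481), and the other 4 measured family members were not DEG. *Ifitm1* shares 5.02% of its 50-base stretches with other genes, among them *Ifitm3*. In the interferon list 22 of the 54 other genes were increased DEG by limma, against 17 by edgeR and 18 by DESeq2. Decreased genes were 0 by each tool (0 lower at an unadjusted limma p under 0.05), and the median log2 fold change was 1.58. The sums over this list overlapped between groups, from 27562.5 to 93282.4 normalized counts in control and from 68606.4 to 145568 in CNV d3. Control replicates 3 (93282.4) and 1 (76103) were the highest controls. Of the SOCS family, *Cish*, at 0 in all controls and at most 12.5 normalized counts in CNV d3, was the 1 increased DEG of 7. *Socs3* was at 937 ± 299 and 2449 ± 648 (1.42 ± 0.23, limma adjusted p = 0.000743), just under the fold threshold, which it passed with the *Ddx3y* covariate and without control replicate 5. For *Spib*, the related factor *Spi1* was at 8345 ± 464 and 6510 ± 865 (-0.37 ± 0.09, limma adjusted p = 0.0129).

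Other linker histones rose as well. *H1f2* rose from 249 ± 144 to 1077 ± 416 (2.18 ± 0.35, limma adjusted p = 0.000841), *H1f4* from 120 ± 39.3 to 477 ± 109 (2.02 ± 0.25, limma adjusted p = 0.000135) and *H1f5* from 2.50 ± 6.14 to 110 ± 50.8 (5.99 ± 0.83, limma adjusted p = 0.000277). *H1f1*, at 0 in all controls, reached 6.06, 22.4 and 33.1 in the lowest, median and highest CNV d3 sample, also an increased DEG. These 4 are the increased DEG among the 6 other linker histones. *H1f0*, made outside DNA copying, was at 1203 ± 176 and 2834 ± 512 (1.23 ± 0.14, limma adjusted p = 5.72e-05), under the fold threshold.

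**Figure D5:**
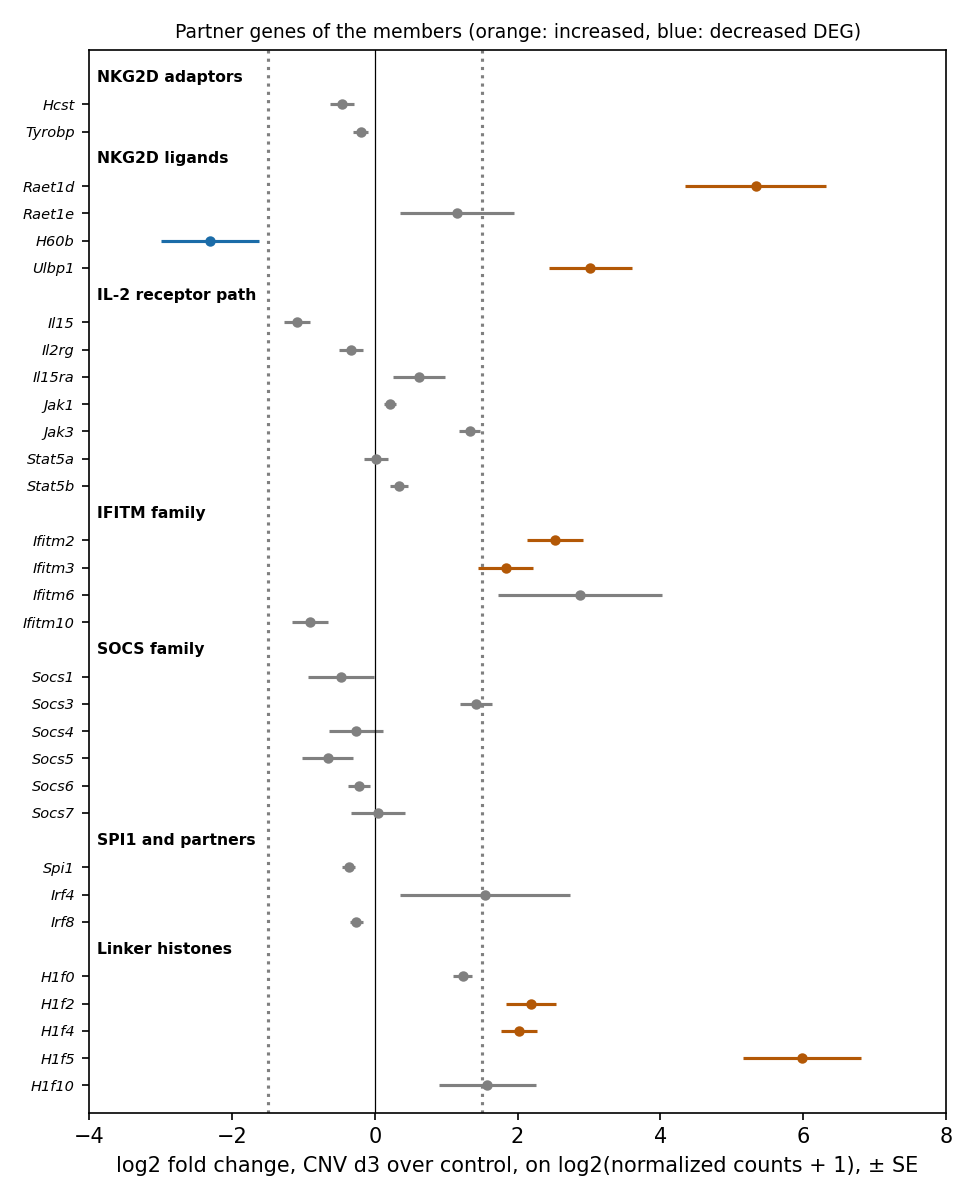
Log2 fold changes, CNV d3 over control, on log2(normalized counts + 1) with their SE for partner genes of *Klrk1*, *Il2ra*, *Ifitm1*, *Socs2*, *Spib* and *H1f3* (n = 6 per group). Orange points are increased and blue points decreased DEG, and the dotted lines mark the fold threshold of 1.5. The receptor adaptors and *Il2rg* lie near 0, and *H1f2*, *H1f4* and *H1f5* lie right of the line.

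Partners of further members were not DEG by limma, edgeR or DESeq2. This held for the 3 apoptosome genes beside *Uaca* and the 2 TNFAIP8 relatives beside *Tnfaip8l1*, of which 1 each had an unadjusted limma p under 0.05. The apoptosome gene *Apaf1* was at 620 ± 159 and 1079 ± 264 (0.80 ± 0.20, limma adjusted p = 0.0167), under the fold threshold only. *Tnfaip8l2* was at 7019 ± 615 and 5105 ± 650 (-0.46 ± 0.10, limma adjusted p = 0.00479), a smaller change than the threshold. *Cxadr*, the binding partner of *Jaml*, was at most 55.5 in any sample, and *Siglecg*, a receptor for *Cd24a*, was at 82.5 ± 52.5 and 134 ± 41.4 (0.85 ± 0.42, limma adjusted p = 0.220).

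Around the cell division members the change was wider. Of the 6 genes of the spindle checkpoint beside *Ttk* 4 were increased DEG, with *Bub1* at 6.58 ± 16.1 in control and 1146 ± 491 in CNV d3 (9.16 ± 0.84, limma adjusted p = 1.32e-05) and *Mad2l1* at 138 ± 91.1 and 904 ± 281 (2.97 ± 0.45, limma adjusted p = 0.000484). Of the 5 partners of BRCA1 beside *Bard1* 3 rose, among them *Brip1*, from 12.5 ± 29.6 to 469 ± 262 (7.29 ± 0.96, limma adjusted p = 0.000195). *Brca1* rose from 27.1 ± 52.4 to 315 ± 147 (6.15 ± 1.17, limma adjusted p = 0.00271), where DESeq2 gave 3.54 with an adjusted p of 0.0812. *Trp53*, which *Gtse1* acts on, was at 2336 ± 377 and 1382 ± 145 (-0.75 ± 0.12, limma adjusted p = 0.000903) and its target *Cdkn1a* at 362 ± 124 and 752 ± 153 (1.10 ± 0.23, limma adjusted p = 0.00507), both under the fold threshold.

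Among the other gene lists that held a member, 17 of 89 other immune receptor genes were increased DEG and 1 was decreased, with a median log2 fold change of 0.57. The list of transcription and signalling genes, which holds *Socs2*, had 12 of 56 increased and 1 decreased, with a median of 1.30. That of cytoskeleton, adhesion and channel genes, which holds *Cd24a*, had 6 of 68 increased and 0 decreased by limma, with a median of 0.50, while 10 lower genes had an unadjusted limma p under 0.05 and edgeR and DESeq2 each called 1. These lists had been made with results of these samples known and are described here without a test of the list.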

How the data were processed

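RNA of sorted retinal microglia from 6 CNV d3 and 6 control samples was measured by RNA-seq. Full-length cDNA was amplified by PCR without molecular identifiers. According to the submitters' notes and methods, the authors used FastQC 0.72, STAR 2.7.2b on GRCm38.p6 with Gencode M25, featureCounts 1.6.4 at default settings, which use no strand and drop reads in 2 genes, and DESeq2 1.22.2 in R 3.5.3. They merged BAM files per sample (19 deposited parts for 12 samples, 7 samples in 2 parts) and removed genes without reads. The deposited values of each sample are a signal, the read count divided by the size factor of the sample. Deposited columns of the authors' group means, fold changes and adjusted p-values were not used. Samples were grouped by their labels.

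In all 12 samples 100% of values were whole multiples (tolerance 0.01) of the value of 1 read, so reads were recovered. Precision is limited by these reads, and floors of 3 reads cover counting error only. Replicate pairs differed by more than sampling noise (chi-square over its degrees of freedom was 29.6 or more), and each was treated as its own sample. This does not show whether samples are separate animals, which the labels do not say. The main test was limma 3.58.1 in R 4.3.3 on log2(value + 1) with a mean trend over all 27299 genes, with Benjamini-Hochberg adjustment, an adjusted p under 0.05 and an absolute log2 fold change over 1.5. Values are not counts, so edgeR 4.0.16 and DESeq2 1.42.0 on recovered reads were alternatives. On simulated counts of 20893 genes, 200 of them changed by a log2 of 3, limma recovered 185 with 10 false calls, edgeR 191 with 7 and DESeq2 193 with 53. Correlations used all pairings of 6 samples (Python 3.11.15, scipy 1.17.1).

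Members and gene lists were chosen with earlier results of these data known. Of the 18 members 17 were named and 1, which is part of the counts and sums, is not reported here, the values of genes just outside the threshold were given, and partners were named from lists written once the members were known; which partners are given with values was decided after their values were seen. Coordinates are from Gencode M21 on GRCm38. In 4 members exons overlap another gene, among them *AA467197*, *Jaml* and *Tnfaip8l1*. The 50-base stretches shared with other transcripts were counted on both strands, and *Jaml* shared most (11.3%). Alternatives were other pseudocounts, filters, normalizations, thresholds of the rule, thinning, a *Ddx3y* covariate, a replicate block and leaving out each sample.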

Additional observations from a re-analysis of the deposited data

Results flagged for a closer look

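Among the 18 members, 2 had a CNV d3 sample far from the other 5 by Dixon's test for 6 samples, a test that flags about 1 in 20 groups by chance. The highest sample of *Jaml*, replicate 3, held 280.1 normalized counts, and the next held 110.4. The highest sample of *Bard1*, also replicate 3, held 80.5, and the next held 43.2.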

How the results depend on the processing

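The number of genes that met the rule depended on the threshold. It was 44 with at least 10 normalized counts (38 outside the cell division list), 4 with at least 50 (1 outside) and 8 in all 6 CNV d3 samples (4 outside). It was 26 with at least 20 recovered reads (22 outside) and 8 with at least 20 reads after thinning (2 outside). With at most 1 control above 0 it was 76 (54 outside). Leaving out 1 sample gave from 19 to 34 genes, and from 15 to 29 outside the cell division list. All 18 members were among them each time, which follows from the rule. Of the CNV d3 samples that remained, 1 could still be under 20, and leaving out a control only eases the rule. Increased DEG were 1068 with limma, from 829 to 1041 without 1 sample, 839 with edgeR, 908 with DESeq2 and 690 with the *Ddx3y* covariate. Decreased DEG were 293 with limma, from 237 to 358 without 1 sample, 281 with edgeR, 572 with DESeq2 and 191 with the covariate. The cause of these differences was not tested. The numbers of the replicates do not pair the samples, since same-numbered samples deviated together with r between -0.07 and 0.09, and the replicate block gave 921 increased and 215 decreased DEG. The alternatives were run for 32 of the 74 partner genes, and none of these 32 changed direction. The correlations gave the same number of calls with log2(value + 5) and with Spearman's rho, 1 with the division score and 0 with the monocyte score, and leaving out the 2 samples farthest from the median gave values but no test. Depth limits the calls of silence, since 3 reads in the shallowest control are 5.96 normalized counts.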
